A study of Homo sapiens with 12 samples.

Results

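The genes of polyamine metabolism described here were SAT1 and 9 partners, ODC1, OAZ1, OAZ2, AZIN1, AMD1, SRM, SMS, SMOX and PAOX, which makes 10 of the 18404 genes that could be followed on the arrays. Members were taken by gene symbol from the array annotation, and each was read by 1 probe set that carried no other symbol. The partners belong to the set by their function, whereas SAT1, which gives the set its name, was selected on its signal on these arrays. SAT1 is therefore described with values and no test, and the other 9 members carry the test.

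The arrays came from A673, a Ewing sarcoma cell line with a rearranged EWS gene, in which the fusion protein EWS-FLI1 drives an abnormal expression program. The study asked whether actinomycin D, a DNA-binding transcription inhibitor, blocks that program at a low dose, and set it beside depletion of EWS-FLI1. There were 6 groups of 2 arrays. Cells infected with a lentivirus carrying 1 shRNA against FLI1 were set against cells infected with a lentivirus carrying a lacZ shRNA, a target that human cells lack, and both infected groups went through puromycin selection. The sample descriptions and the study's methods put harvest at the end of 48 h of selection that followed 24 h with virus, whereas its results section counts 48 h after infection. The other 4 groups were not infected: cells left untreated, listed at 0 h, and cells given DMSO, 5 nM or 50 nM actinomycin D for 24 h. DMSO and untreated cells thus differ in listed time as well as in vehicle. All groups share the one cell line. The study's methods speak of duplicate treatments for DMSO and 5 nM, and the sources do not say for the other groups whether the 2 arrays came from separate cultures, so p-values rest on a between-array spread that may be technical only.

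Polyamines are small positively charged molecules that bind nucleic acids and that growing cells need. Ornithine decarboxylase (ODC1) makes putrescine, and the synthases SRM and SMS lengthen it to spermidine and then to spermine with aminopropyl groups supplied through S-adenosylmethionine decarboxylase (AMD1). SAT1 acetylates spermidine and spermine, which marks them for export or for breakdown by the oxidase PAOX, while SMOX turns spermine straight back into spermidine. Antizymes (OAZ1, OAZ2) bind ODC1 protein and send it to the proteasome, and the antizyme inhibitor AZIN1 draws them away. SAT1, AMD1 and the antizymes are known to be governed strongly at the level of translation and protein stability, which arrays do not read.

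Values are log2 signals after the authors' normalization, and a difference of 1 on this scale is a 2-fold change. The targeted gene came down in its own comparison. FLI1 read 7.30 and 7.08 in FLI1 shRNA cells, against 8.63 and 8.45 in lacZ shRNA cells. Its log2 difference was -1.35 ± 0.09 (SE, n = 2 each; adjusted p = 5.39e-06, limma), which left 39.2% of the lacZ signal. FLI1 was also lower at 50 nM, with 7.71 and 7.60 against 8.59 and 8.61 in DMSO (adjusted p = 1.68e-05), and at 5 nM it read 8.50 and 8.55 (adjusted p = 0.479). The median signal of an array over all its rows was 6.67 to 6.83, and the arrays within a group correlated at 0.9949 to 0.998. Of 6 markers of Ewing sarcoma cells 5 were measured, and against the median of the 18404 genes (7.36 to 7.47 by group mean) all 5 were higher outside the FLI1 shRNA cells, where 4 were. Their mean was 9.42 to 9.49 in FLI1 shRNA cells and 10.6 in lacZ shRNA cells. It was 10.5 in DMSO, 10.4 to 10.5 at 5 nM and 9.76 to 9.79 at 50 nM. Of the 5, NKX2-2, STEAP1, NPY1R and LOXHD1 are on the study's own list of genes lowered by this FLI1 shRNA, and CD99 is not. The lower marker mean in FLI1 shRNA cells repeats that list and is no separate reading of cell type. All measured epithelial (4 of 4), blood (3 of 4) and endothelial (4 of 4) markers lay below that gene median in every group. The blood list averaged 4.49 to 4.68 in DMSO, 4.79 to 4.91 at 5 nM and 4.80 to 4.88 at 50 nM. The epithelial list averaged 5.08 to 5.24 in DMSO, 5.32 to 5.56 at 5 nM and 5.31 to 5.36 at 50 nM, and the endothelial list 5.42 to 5.51 in DMSO, 5.52 to 5.72 at 5 nM and 5.70 to 5.74 at 50 nM. The part of these shifts in the members' values was not tested.

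SAT1, the acetyltransferase that opens polyamine breakdown, had its highest level of the series at 5 nM actinomycin D. It read 8.59 and 8.23 in DMSO, 11.86 and 11.78 at 5 nM, and 10.78 and 10.78 at 50 nM. Both doses stood clear of DMSO, and the higher dose gave the lower level. The log2 difference from DMSO was 3.41 ± 0.14 at 5 nM (SE, n = 2 each), a 10.6-fold difference, and 2.37 ± 0.14 at 50 nM, a 5.16-fold difference. Ranked by this difference among 18404 genes, SAT1 was at rank 3 at 5 nM and at rank 4 at 50 nM. The level at 50 nM was 48.6% of that at 5 nM. Both doses were read against the same DMSO arrays.

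With EWS-FLI1 depleted, SAT1 read 9.33 and 9.61 in FLI1 shRNA cells, against 8.93 and 8.77 in lacZ shRNA cells. The groups did not overlap, and the log2 difference was 0.63 ± 0.14 (SE, n = 2 each), a 1.55-fold difference at rank 713. Untreated cells read 8.27 and 8.61, which overlapped DMSO. In the order 5 nM, 50 nM, FLI1 shRNA, lacZ shRNA, untreated and DMSO, from the highest mean to the lowest, only untreated and DMSO overlapped. In bulk RNA, a higher signal in every cell and a higher share of cells with the transcript cannot be told apart.

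**Figure D1:**
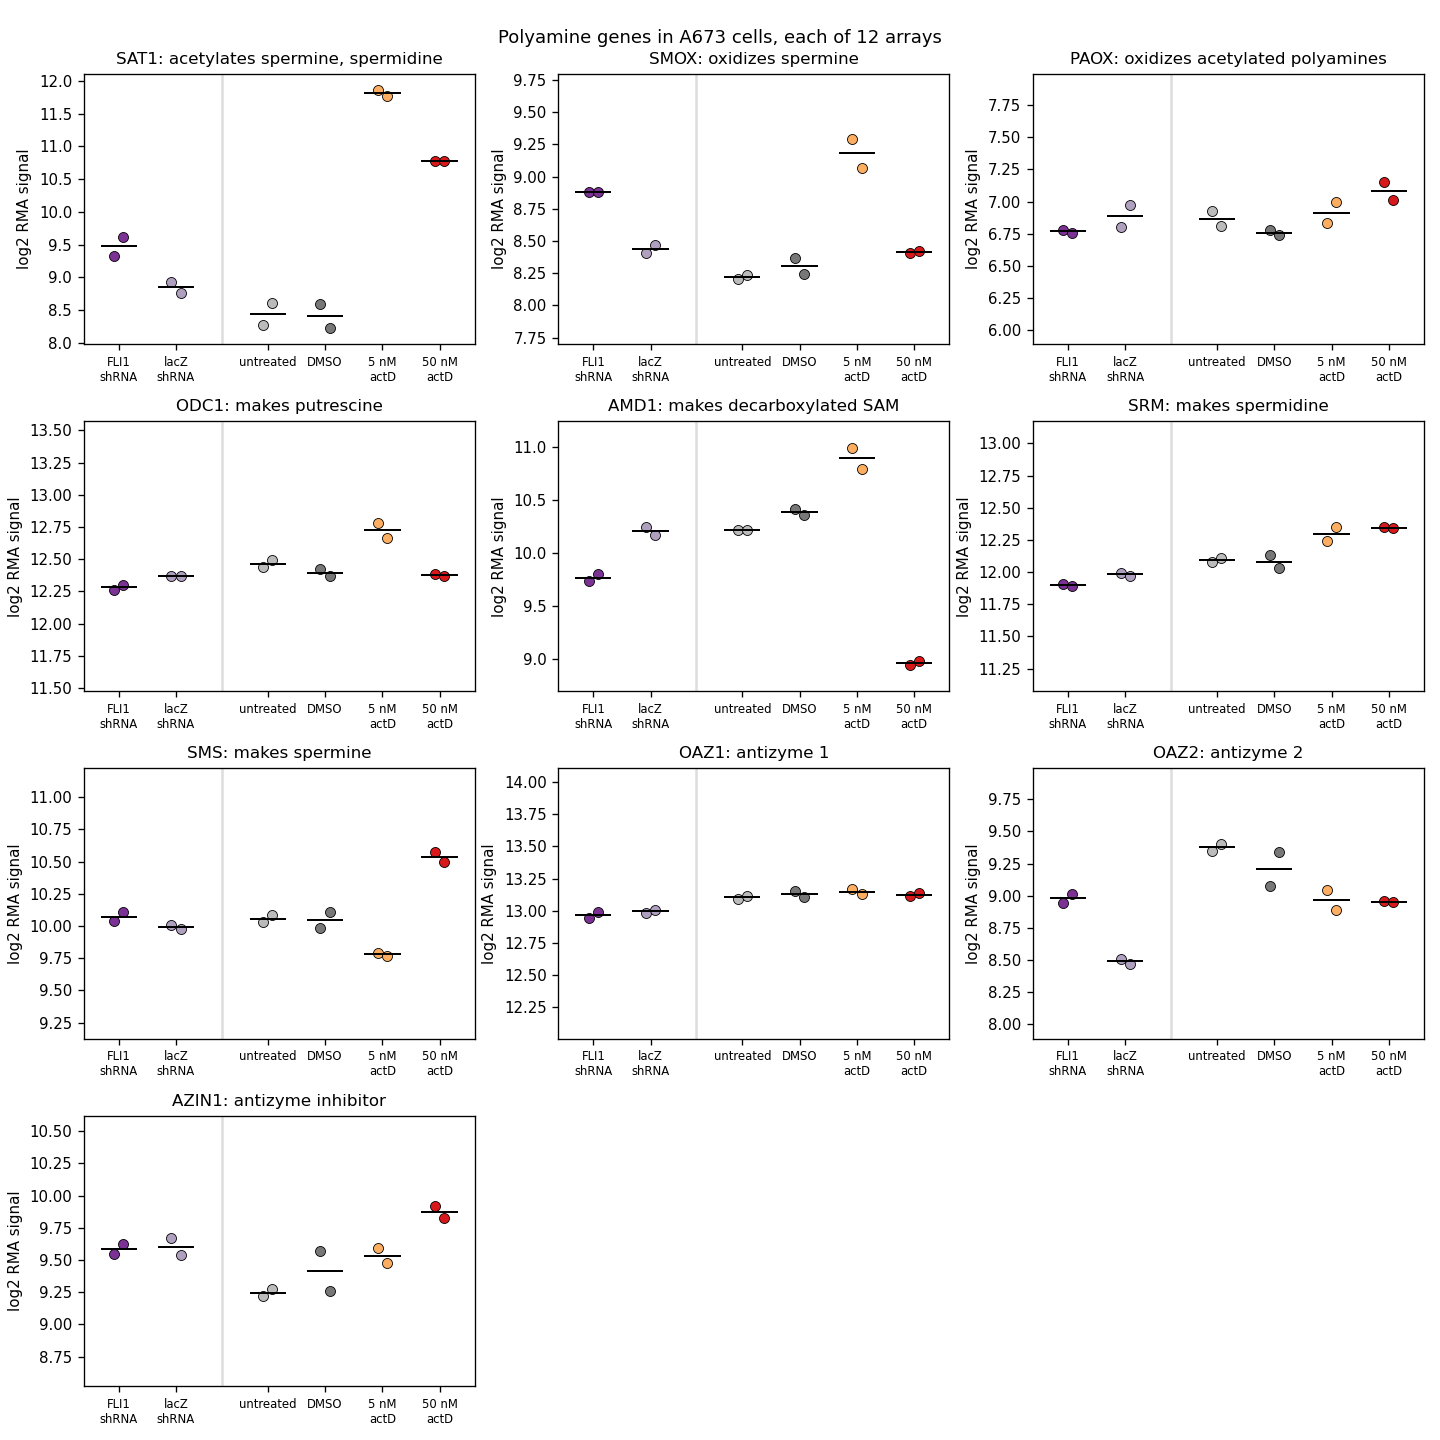
Log2 signal of each of the 10 genes on each of the 12 arrays, by group, with points for arrays and a bar for each group mean (n = 2); each panel has its own axis range. SAT1 lies at 11.86 and 11.78 at 5 nM and at 10.78 and 10.78 at 50 nM, above all other groups, whereas AMD1 is highest at 5 nM and lowest at 50 nM.

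Upstream sequence is shown for SAT1, the gene with the widest range, and for 3 partners with other patterns: ODC1, called at 5 nM and not at 50 nM on the deposited scale, AMD1, which moved in opposite directions at the 2 doses, and OAZ1, which passed the test in no comparison on the deposited scale. Each stretch is the 250 bases before the first-listed RefSeq start in GRCh38.p14, on the strand of the gene. GGAA, the core bound by the ETS family to which FLI1 belongs, is in capitals in either orientation (GGAA or TTCC). The positions are chrX:23782923-23783172 (plus strand) for SAT1, chr2:10448328-10448577 (minus strand) for ODC1, chr6:110874535-110874784 (plus strand) for AMD1 and chr19:2269236-2269485 (plus strand) for OAZ1.
SAT1: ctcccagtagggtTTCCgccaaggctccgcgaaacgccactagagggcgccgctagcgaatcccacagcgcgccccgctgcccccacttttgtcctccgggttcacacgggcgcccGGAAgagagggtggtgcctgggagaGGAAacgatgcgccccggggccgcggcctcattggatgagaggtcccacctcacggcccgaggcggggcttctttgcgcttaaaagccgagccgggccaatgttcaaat
ODC1: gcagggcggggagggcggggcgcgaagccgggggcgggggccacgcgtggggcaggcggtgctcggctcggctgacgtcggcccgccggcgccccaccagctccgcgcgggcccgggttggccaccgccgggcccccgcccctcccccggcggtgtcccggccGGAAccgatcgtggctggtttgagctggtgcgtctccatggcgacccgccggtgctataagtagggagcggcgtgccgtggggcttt
AMD1: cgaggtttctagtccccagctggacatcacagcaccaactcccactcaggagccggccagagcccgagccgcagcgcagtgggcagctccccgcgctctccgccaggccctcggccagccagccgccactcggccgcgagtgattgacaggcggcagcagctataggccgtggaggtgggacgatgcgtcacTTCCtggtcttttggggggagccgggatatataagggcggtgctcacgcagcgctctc
OAZ1: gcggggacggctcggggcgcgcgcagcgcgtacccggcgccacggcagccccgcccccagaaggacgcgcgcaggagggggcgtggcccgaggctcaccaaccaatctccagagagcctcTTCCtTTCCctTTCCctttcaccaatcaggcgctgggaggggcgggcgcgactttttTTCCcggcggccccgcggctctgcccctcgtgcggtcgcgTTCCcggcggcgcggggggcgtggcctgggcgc

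GGAA occurred 3 times before SAT1, 1 time before ODC1, 1 time before AMD1 and 5 times before OAZ1. It is a common motif, present in 92.7% of 35116 RefSeq promoters of the same length, with a median of 3. The longer ETS form CCGGAAG, searched on both strands and overlapping one of those GGAA cores, occurred 1 time before SAT1 and in 8.52% of promoters. TATAA stood before ODC1 and AMD1 and in 18.9% of promoters. Actinomycin D is known to bind DNA at GpC steps, of which there were 29 before SAT1, 38 before ODC1, 33 before AMD1 and 39 before OAZ1, against a median of 20. In the same order the windows held 66.4%, 78.8%, 67.2% and 75.2% G and C, against a median of 58%. Such counts describe these windows only, and the part of base composition in them was not tested. AMD1 has 3 starts in the table and ODC1 has 2, and windows of 7 members were read.

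Among the partners in breakdown, SMOX moved with SAT1 at 5 nM and after FLI1 depletion. SMOX, the spermine oxidase, read 8.37 and 8.24 in DMSO, 9.29 and 9.07 at 5 nM, and 8.41 and 8.42 at 50 nM. The 5 nM arrays lay above all others and the 50 nM arrays just above DMSO. SMOX rose at 5 nM by 0.87 ± 0.08 (SE, n = 2 each; adjusted p = 7.33e-06), a 1.83-fold change, and was 0.11 higher at 50 nM (adjusted p = 0.3), a value that came to 0.34 after quantile normalization again (adjusted p = 0.00345) and to -0.15 with ribosomal protein centring (adjusted p = 0.138). It was lower at 50 nM than at 5 nM by a log2 difference of -0.76 (adjusted p = 2.03e-05). In FLI1 shRNA cells it read 8.88 and 8.88, against 8.40 and 8.47 in lacZ shRNA cells, a rise of 0.45 ± 0.08 (adjusted p = 0.00322).

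PAOX, the oxidase that acts on acetylated polyamines, had a narrow range at a low level. Its mean of 6.88 lay at percentile 41.1 of all genes, the only member below the median. It read 6.78 and 6.74 in DMSO, 6.84 and 7.00 at 5 nM, and 7.15 and 7.02 at 50 nM. It rose by 0.32 at 50 nM (adjusted p = 0.0124), a call lost without 1 array of either group (0.0607 without DMSO replicate 2, 0.0865 without 50 nM replicate 1). After FLI1 depletion PAOX read 6.78 and 6.76, against 6.80 and 6.97 in lacZ shRNA cells (adjusted p = 0.404).

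AMD1, which provides the aminopropyl donor, separated the 2 doses most. It read 10.42 and 10.36 in DMSO, 10.99 and 10.80 at 5 nM, and 8.94 and 8.98 at 50 nM. No 2 of these groups overlapped. AMD1 rose at 5 nM by 0.51 ± 0.08 (SE, n = 2 each; adjusted p = 0.000303), a 1.42-fold change. At 50 nM it fell by 1.43 ± 0.08 (adjusted p = 3.02e-07), which left 37.2% of the DMSO signal. The level at 50 nM was 26.2% of that at 5 nM (log2 difference -1.93 ± 0.08, adjusted p = 2.01e-08). With FLI1 depleted, AMD1 read 9.73 and 9.80, against 10.25 and 10.17 in lacZ shRNA cells, and it fell by 0.44 ± 0.08 (adjusted p = 0.00239).

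ODC1, the first enzyme of the path, was called at the low dose on the deposited scale. It read 12.42 and 12.37 in DMSO, 12.78 and 12.66 at 5 nM, and 12.38 and 12.37 at 50 nM. ODC1 rose by 0.33 ± 0.07 at 5 nM (adjusted p = 0.00226) and differed by -0.02 at 50 nM (adjusted p = 0.817). The 5 nM call was lost after quantile normalization again (0.16, adjusted p = 0.0596), and with ribosomal protein centring ODC1 differed by -0.03 at 5 nM and fell by 0.28 at 50 nM (adjusted p = 0.00342). In FLI1 shRNA cells it read 12.26 and 12.30, against 12.37 and 12.37 in lacZ shRNA cells (difference -0.09, adjusted p = 0.408).

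The synthases differed in pattern. SMS, which makes spermine, read 9.99 and 10.11 in DMSO, 9.79 and 9.77 at 5 nM, and 10.58 and 10.50 at 50 nM. SMS fell by 0.27 at 5 nM (adjusted p = 0.00953; 0.0744 without DMSO replicate 2) and rose by 0.49 at 50 nM (adjusted p = 0.000277), the reverse of AMD1 at both doses. Across the 12 arrays AMD1 and SMS correlated at r = -0.942, the strongest of any pair of members and a description over shared treatments. SRM, which makes spermidine, read 12.13 and 12.03 in DMSO, 12.24 and 12.35 at 5 nM, and 12.35 and 12.34 at 50 nM. It rose by 0.22 at 5 nM (adjusted p = 0.0239) and by 0.26 at 50 nM (adjusted p = 0.0107), and both calls were lost without DMSO replicate 2 (0.138 at 5 nM, 0.0725 at 50 nM). The 5 nM call was also lost without 5 nM replicate 2 (difference 0.16) and after quantile normalization again (0.15, adjusted p = 0.0839). Neither synthase passed the test in FLI1 shRNA cells, with differences from lacZ shRNA cells of 0.08 for SMS (adjusted p = 0.467) and -0.08 for SRM (adjusted p = 0.462). RefSeq names 4 pseudogenes of AMD1, 3 of SRM, 1 of SMS and 1 of OAZ1, with which probes may share signal.

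Of the antizyme system, OAZ1 held the narrowest range, with a mean of 13.08 at percentile 99.8 of all genes. It read 13.15 and 13.11 in DMSO, 13.17 and 13.13 at 5 nM, and 13.12 and 13.14 at 50 nM. The 5 nM difference was 0.02, with a 95% interval of -0.12 to 0.16 (adjusted p = 0.81). In FLI1 shRNA cells OAZ1 read 12.94 and 12.99, against 12.98 and 13.01 in lacZ shRNA cells (95% interval of the difference -0.17 to 0.11, adjusted p = 0.77).

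OAZ2, the second antizyme, read 8.95 and 9.01 in FLI1 shRNA cells, against 8.51 and 8.47 in lacZ shRNA cells, and rose by 0.49 ± 0.09 (SE, n = 2 each; adjusted p = 0.00339). The lacZ arrays lay below every other array of the series, with untreated cells at 9.35 and 9.40. In DMSO it read 9.07 and 9.34, at 5 nM 9.05 and 8.89, and at 50 nM 8.96 and 8.95. The difference from DMSO was -0.24 at 5 nM (adjusted p = 0.0502) and -0.25 at 50 nM (adjusted p = 0.0436), values on either side of the threshold. The 50 nM call was lost on leaving out any of 9 of the 12 arrays. AZIN1, the antizyme inhibitor, read 9.57 and 9.26 in DMSO, 9.59 and 9.48 at 5 nM, and 9.92 and 9.83 at 50 nM. AZIN1 rose at 50 nM by 0.46 ± 0.10 (adjusted p = 0.00407), and was higher there than at 5 nM by 0.34 (adjusted p = 0.019; 0.1 without 5 nM replicate 2 and 0.104 without 50 nM replicate 1). In FLI1 shRNA cells it read 9.55 and 9.63, against 9.67 and 9.54 in lacZ shRNA cells (adjusted p = 0.932).

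Calls among the 9 partners are read here against the share of all genes called. After FLI1 depletion SMOX and OAZ2 rose, AMD1 fell and 6 did not pass, where 23.9% of all genes passed, 14.6% higher and 9.28% lower. In 7 of the 9 the groups did not overlap, as in 63.1% of all genes, and 0 passed the study's 2-fold threshold, which 1.8% of all genes passed. At 5 nM SMOX, AMD1, ODC1 and SRM rose, SMS fell and 4 did not pass, where 53.3% of all genes passed, 30.3% higher and 23% lower. In 7 of the 9 the groups did not overlap, as in 75.4% of all genes, and 0 passed the 2-fold threshold, which 10.5% of all genes passed. Those 5 calls became 3 without DMSO replicate 2. At 50 nM SMS, AZIN1, PAOX and SRM rose, AMD1 and OAZ2 fell and 3 did not pass, where 49% of all genes passed, 25.8% higher and 23.3% lower. In 7 of the 9 the groups did not overlap, as in 77.4% of all genes, and AMD1 alone passed the 2-fold threshold, which 5.98% of all genes passed. Those 6 calls also became 3 without DMSO replicate 2. Between the doses SMS and AZIN1 were higher at 50 nM, AMD1, SMOX and ODC1 were lower and 4 did not pass, where 44.7% of all genes passed, 21.6% higher and 23.1% lower. Groups did not overlap in 6 of the 9, as in 66% of all genes, and AMD1 alone passed the 2-fold threshold, which 11% of all genes passed. The median difference of the 9 was 0.16 at 5 nM, beside 0.12 for all genes, and 0.11 at 50 nM, beside 0.10. DMSO against untreated cells gave 0 of 9 at adjusted p under 0.05 by limma, where 0.00543% of all genes passed, and 0 of 9 at an unadjusted p under 0.05. Their groups did not overlap in 5 of the 9, as in 41.1% of all genes.

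The direction of the smaller changes under the drug depended on the scale. Centring each array on 57 ribosomal protein genes moved the median of all genes to -0.24 at 5 nM, beside 0.12 as deposited, and to -0.16 at 50 nM, beside 0.10. The share of calls over all genes that were higher became 17.2% at 5 nM, beside 56.9%, and 12.2% at 50 nM, beside 52.5%. On that scale SAT1 was still higher by 3.06 at 5 nM and by 2.11 at 50 nM, and SMOX by 0.52 at 5 nM. AMD1 at 5 nM came to 0.15 (adjusted p = 0.0846), ODC1 to -0.03 and SRM to -0.14, so neither ODC1 nor SRM kept its direction. OAZ1 at 5 nM came to -0.33 (adjusted p = 0.000839). The fall of AMD1 at 50 nM was -1.68, and AZIN1 there came to 0.20 (adjusted p = 0.105). PAOX at 50 nM came to 0.07 (adjusted p = 0.635) and SRM to 0.007 (adjusted p = 0.956), so these calls were lost too. The 9 partners then split into 1 higher and 3 lower at 5 nM, beside 4 and 1 on the deposited scale, and into 1 higher and 4 lower at 50 nM, beside 4 and 2.

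**Figure D2:**
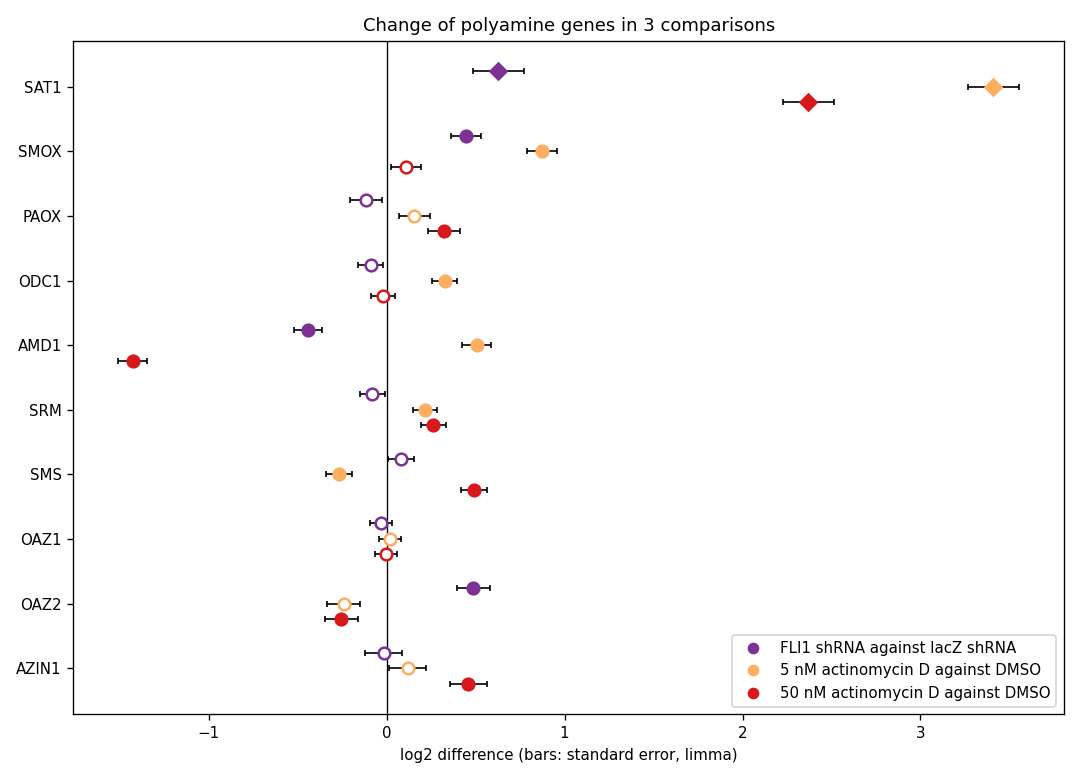
Log2 difference of each of the 10 genes in 3 comparisons (FLI1 depletion against its lacZ control, and each drug dose against DMSO), with bars for the standard error from limma (n = 2 arrays a group), filled circles for adjusted p under 0.05, open circles for the rest and diamonds for SAT1, which has no test. SAT1 is at 3.41 at 5 nM and 2.37 at 50 nM, while AMD1 is at 0.51 at 5 nM and at -1.43 at 50 nM.

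The response to FLI1 depletion and the response to 5 nM were set against each other directly, as one log2 difference minus the other. SAT1's response to depletion was smaller by a difference of -2.78 ± 0.20 (SE). Of the 9 partners, 2 had a higher response after depletion and 4 a lower one, where 46.6% of all genes passed, 22.8% higher and 23.7% lower. Those 6 calls became 3 without DMSO replicate 2, and ribosomal protein centring gave 3 higher and 1 lower. Over all genes, 84.5% of the calls with that centring were higher, beside 49% as deposited. AMD1 differed most (-0.95 ± 0.11, adjusted p = 5.53e-05), falling after depletion and rising at 5 nM on the deposited scale. SMOX rose in both, by less after depletion (-0.43, adjusted p = 0.0137; 0.052 without DMSO replicate 2), a gap that came to -0.06 with ribosomal protein centring (adjusted p = 0.67). OAZ2 lay on the other side (0.73, adjusted p = 0.00106), and SMS likewise (0.35, adjusted p = 0.0167), a call lost without any of 3 arrays. ODC1 (-0.42, adjusted p = 0.00539) and SRM (-0.30, adjusted p = 0.031) had the lower response after depletion, a call that SRM lost without any of 6 arrays and that ODC1 lost with ribosomal protein centring (-0.05, adjusted p = 0.685). The 2 responses differ in virus, selection and time as well as in agent, and these cannot be told apart.

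Genes whose pattern was most like that of SAT1 were taken by Pearson correlation over the 12 arrays, among 4289 genes whose group means spanned at least 1 on the log2 scale. They were LRRTM2 (r = 0.985), a synaptic adhesion protein, GADD45B (r = 0.984), a stress-response protein, NRIP3 (r = 0.983), NCDN (r = 0.983) and PLK2 (r = 0.982), a stress-induced kinase. PLK2 averaged 6.89 in FLI1 shRNA cells and 5.52 in lacZ shRNA cells, and 5.69 in DMSO, 10.47 at 5 nM and 8.41 at 50 nM. GADD45B averaged 7.60 in DMSO, 10.48 at 5 nM and 9.64 at 50 nM. Each of the 5 was highest at 5 nM and next at 50 nM, as selection for likeness to SAT1 requires. Within the set, SAT1 correlated most with SMOX (r = 0.744) and SRM (r = 0.708), and with AMD1 at r = -0.0177. All these correlations share the same 12 arrays and 6 treatments and are a description.

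**Figure D3:**
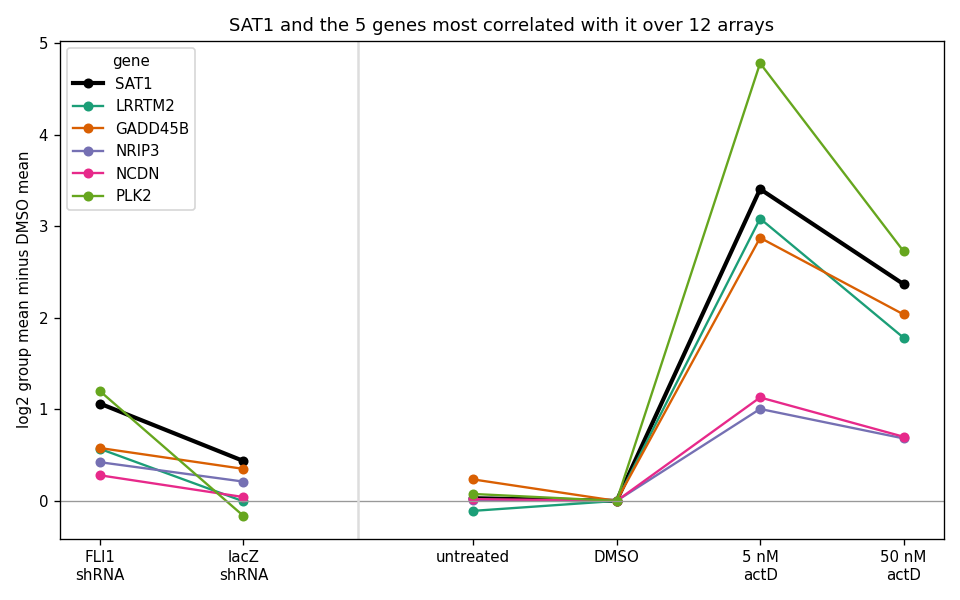
Group means (log2 signal, n = 2 arrays) minus the DMSO mean of the same gene, for SAT1 and the 5 genes most like it by Pearson correlation over 12 arrays, with lines joining groups for reading only. All 6 genes are highest at 5 nM and next at 50 nM, and PLK2 stands farthest above its DMSO mean.

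Around the set, 36 of 40 further genes of polyamine supply, use and control were measured. At 5 nM 16 rose, 5 fell and 15 did not pass, beside 53.3% of all genes called. With ribosomal protein centring 6 rose and 16 fell, where 1696 of all 18404 genes were higher and 8153 lower. OAT, which links ornithine to proline and glutamate, read 8.78 and 8.66 in DMSO, 10.37 and 10.47 at 5 nM, and 9.41 and 9.34 at 50 nM. It rose at 5 nM by 1.70 ± 0.09 (SE, n = 2 each; adjusted p = 6.89e-08) and at 50 nM by 0.65 (adjusted p = 0.000151). SLC7A1, the carrier of arginine and ornithine into cells, read 10.62 and 10.50 in DMSO, 9.10 and 9.10 at 5 nM, and 10.24 and 10.38 at 50 nM, and at 5 nM it fell by 1.46 (adjusted p = 8.39e-08). Thus OAT was higher while SLC7A1 was lower at the low dose. They are 2 of the 8 genes listed for arginine and ornithine supply, of which 4 rose and 1 fell at 5 nM. Of all genes 30.3% were called higher there and 23% lower. AZIN2, a relative of AZIN1, rose at 5 nM by 0.79 (adjusted p = 7.9e-05).

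At 50 nM 10 of the 36 rose, 6 fell and 20 did not pass, beside 49% of all genes called. With ribosomal protein centring 3 rose and 13 fell, where 977 of all 18404 genes were higher and 6999 lower. With quantile normalization again 14 rose and 4 fell, where 4869 of all genes were higher and 3773 lower. MYC, a transcription factor known to activate ODC1, read 11.02 and 11.00 in DMSO, 11.41 and 11.28 at 5 nM, and 9.42 and 9.56 at 50 nM. At 50 nM it fell by 1.52 (adjusted p = 1.77e-07). MAT2A, which makes the S-adenosylmethionine that AMD1 uses, read 11.24 and 11.30 at 50 nM, against 12.55 and 12.49 in DMSO, and fell by 1.25 (adjusted p = 1.78e-07). NFE2L2, the oxidative stress regulator known to act on SAT1, fell by 1.01 (adjusted p = 2.09e-06). Of the list for eIF5A and its hypusination, the modification that takes its side group from spermidine, 3 of 4 genes were measured, EIF5A not among them. All 3 rose at 50 nM, where 25.8% of all genes were called higher. DHPS, which uses the spermidine, rose by 0.62, DOHH, which completes the modification, by 0.50, and EIF5A2, an isoform of the modified protein, by 0.49. DHPS and DOHH are named after their values were seen, and DOHH (adjusted p = 0.0559) and EIF5A2 (adjusted p = 0.0647) did not pass with ribosomal protein centring. At 5 nM EIF5A2 (0.74, adjusted p = 5.17e-05) and DOHH (0.42, adjusted p = 0.00158) also rose as deposited, and DHPS did not pass (adjusted p = 0.147). EIF5A2 was lower at 50 nM than at 5 nM (-0.25, adjusted p = 0.0492), and DHPS was higher (0.48, adjusted p = 0.000478).

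Between the doses, 7 of the 36 were higher at 50 nM, 15 were lower and 14 did not pass, beside 44.7% of all genes called. With ribosomal protein centring 10 were higher and 10 lower, where 5244 of all 18404 genes were higher and 3570 lower. MYC (-1.86, adjusted p = 2.16e-08), MYCN (-1.25, adjusted p = 1.73e-06) and MAT2A (-1.22, adjusted p = 8.37e-08) were lower at 50 nM. SLC7A1 was higher there (1.21, adjusted p = 3.06e-07). After FLI1 depletion 2 of the 36 rose, 6 fell and 28 did not pass, beside 23.9% of all genes called. SLC18B1, a vesicular polyamine carrier, fell by 0.92 (adjusted p = 0.000495), MYCN fell by 0.74 (adjusted p = 0.000415) and MYC fell by 0.64 (adjusted p = 0.000198), while EIF5A2 rose by 0.45 (adjusted p = 0.00481). MYCN went the other way at 5 nM, with 8.43 and 8.75 against 7.40 and 7.28 in DMSO, a rise of 1.25 (adjusted p = 1.8e-06). MYC also rose at 5 nM (0.33, adjusted p = 0.00423). SLC18B1 fell at 5 nM as after depletion (-0.75, adjusted p = 0.000555), and EIF5A2 rose in both. DMSO against untreated cells gave 0 of 36 by limma, and 3 at an unadjusted p under 0.05.

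**Figure D4:**
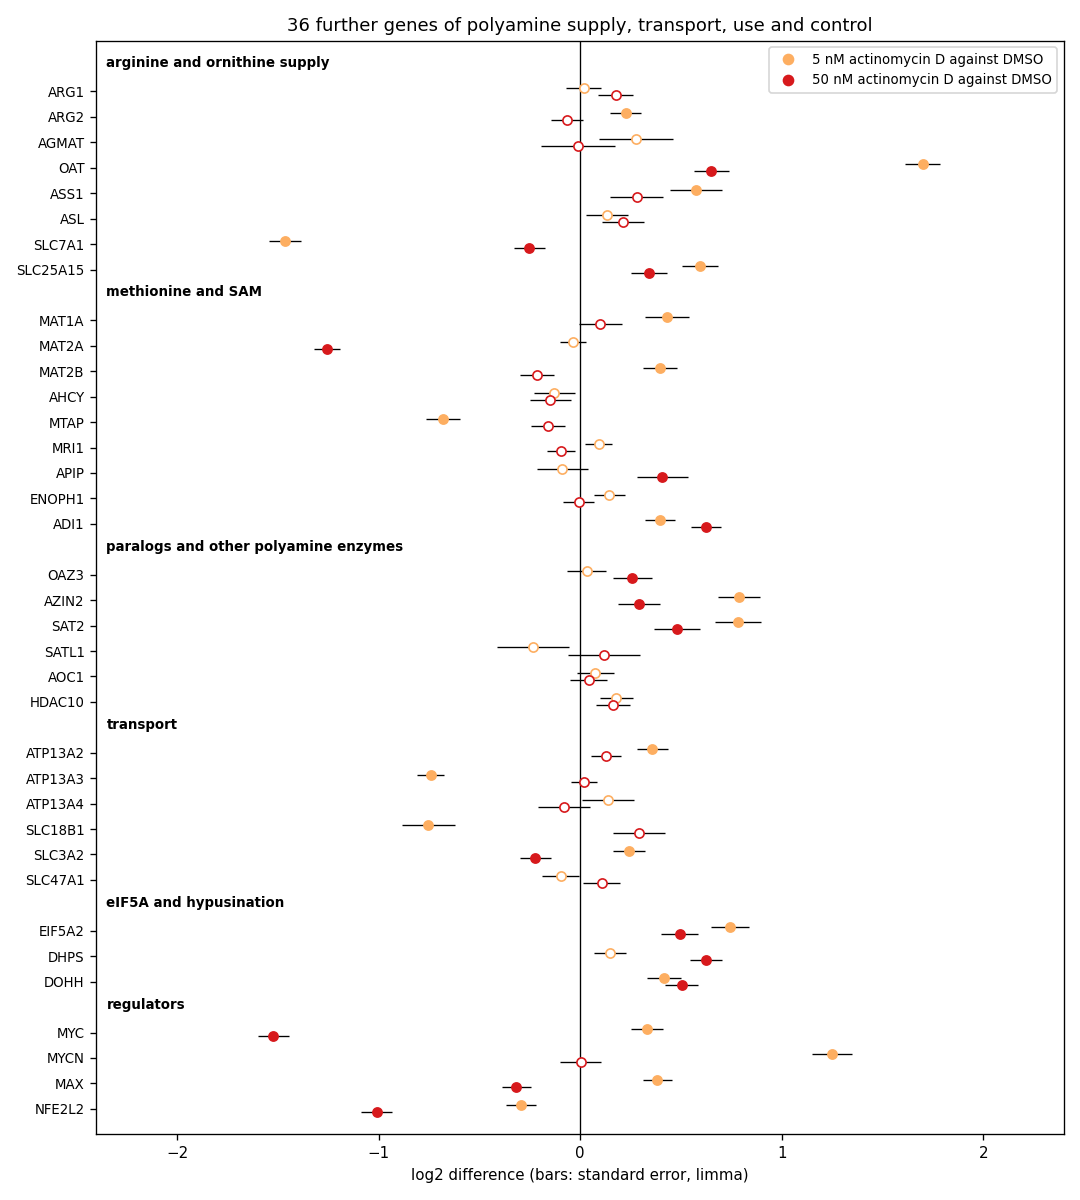
Log2 differences of the 36 measured genes around the set, by functional list, at 5 nM and at 50 nM actinomycin D against DMSO, with bars for the standard error from limma (n = 2 arrays a group) and filled circles for adjusted p under 0.05. OAT stands highest at 5 nM (1.70) and SLC7A1 lowest (-1.46), while MYC stands lowest at 50 nM (-1.52).

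Gene length went with the response to the drug over the whole array. Across 16898 protein-coding genes the Spearman correlation of genomic span with the log2 difference was -0.522 at 5 nM and -0.286 at 50 nM. Across the 10 members it was -0.176 and -0.248. The member values include SAT1, which was selected on its signal, so they are no check on the array-wide ones. SAT1 spans 3.04 kb on chromosome X and AMD1 81.1 kb on chromosome 6, the shortest and the longest of the members by RefSeq (GRCh38.p14). The AMD1 span, as used in the member correlation, counts a far upstream start. The window printed for AMD1 ends at 110874784 and the gene at 110895713. From the start after that window, AMD1 is shorter than SMS, SMOX and AZIN1. SMS (54.1 kb, chromosome X), SMOX (38.9 kb, chromosome 20) and AZIN1 (37.9 kb, chromosome 8) are also long, and OAZ1 (4.00 kb, chromosome 19), SRM (5.43 kb, chromosome 1) and ODC1 (8.36 kb, chromosome 2) are short. The part of gene length in the members' values was not tested.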

How the data were processed

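RNA of A673 cells (12 arrays, 6 groups of 2) was hybridised to Affymetrix Human Gene 1.0 ST arrays. The deposited log2 values had been background-corrected and normalized by the authors with RMA in affy (its version is not named in the sources at hand) and were used as deposited. Of 32321 rows, 19158 carried 1 gene symbol, 1388 several and 11775 none. Only rows with 1 symbol were kept, and for 637 genes with several probe sets the one with the highest mean was taken, which gave 18404 genes. Groups were compared in limma 3.58.1 (R 4.3.3), 1 fit over all 12 arrays, with Benjamini-Hochberg adjustment over all genes and a threshold of 0.05. The study's own threshold, over 2-fold at adjusted p under 0.01, was used where named. Array number limits the precision. The members, the gene lists and the rule for named genes (all members, the 4 genes of the surrounding list with the largest change past the threshold in each comparison, and the 5 most like SAT1, with DHPS and DOHH named beside it) were chosen with earlier results of these data known. The fit was tested on simulated data. Alternatives were a replicate block, a filter on dim genes (under the 40th percentile), the mean over probe sets, quantile normalization again, ribosomal protein centring, a trended robust fit, only the arrays compared, and each array left out in turn.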

Additional observations from a re-analysis of the deposited data

How the results depend on the processing

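With 2 arrays a group, leaving out 1 array leaves a lone array assumed to vary like the other groups. The 3 calls among the 9 partners after FLI1 depletion stayed 3 with every array left out in turn. The count ranged from 3 to 6 at 5 nM, from 3 to 6 at 50 nM, from 4 to 5 between the doses, from 0 to 0 for DMSO against untreated cells, and from 3 to 7 for the depletion response minus the 5 nM response. The lowest values at 5 nM, at 50 nM and for that difference came without DMSO replicate 2. With only the arrays compared, the 5 calls at 5 nM became 3. Ribosomal protein centring turned the sign at 5 nM of ODC1 (-0.027), OAZ1 (-0.33) and SRM (-0.14), and in the depletion response minus the 5 nM response that of OAZ1 (0.31) and SRM (0.068), because it moves all genes by the shift of 57 genes. It also turned values called on neither scale: AZIN1 (-0.23) and PAOX (-0.20) at 5 nM, SMOX (-0.15) at 50 nM, OAZ1 (0.07) and OAZ2 (0.08) between the doses, OAZ1 (-0.01) for DMSO, and AZIN1 (0.23) and PAOX (0.09) in the difference of responses. SAT1 differed by 3.06 to 3.59 at 5 nM, 2.11 to 2.55 at 50 nM and 0.49 to 0.77 after FLI1 depletion under all alternatives. OAZ2 at 50 nM was -0.02 after quantile normalization and -0.51 with ribosomal protein centring (adjusted p = 0.00105), and at 5 nM it passed with that centring (-0.59, adjusted p = 0.000288), without dim genes (0.0276) and in the trended robust fit (0.0291). With the replicate block, counts were 3 after FLI1 depletion, 5 at 5 nM, 5 at 50 nM, 5 between the doses, 0 for DMSO and 6 for the difference of responses, and 1 call was lost, that of OAZ2 at 50 nM (adjusted p = 0.0542). Deviations of same-numbered arrays correlated between groups from -0.453 to 0.335, with a median of -0.0211. The median shows no pairing common to all groups, and pairing between particular groups cannot be told from these values. The cause of the other changes was not tested.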
